A study of Mus musculus with 32 samples.

Results

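The genes described here encode the proteasome, its activators and its assembly factors. They were taken as every protein-coding gene of the count table whose mouse symbol begins with Psm, a letter from a to g and a digit, which gave 49 of 37310 genes. Of these, 31 encode constitutive subunits of the core and the regulatory particle, 2 encode the immunoproteasome subunits Psmb8 and Psmb10, 5 encode activators or an inhibitor, 7 encode assembly chaperones and 4 are restricted to another tissue or are no subunit. The third immunoproteasome subunit, Psmb9, had no matched gene in the table and was not analysed here. A total of 48 of the 49 genes passed the filter on low counts (a CPM above 1 in at least 3 tumors), and all 31 constitutive subunits were among them. The exception was Psmb11, a beta subunit of the thymus, at 0 to 1.32 CPM.

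The proteasome degrades proteins that carry ubiquitin chains. Its 20S core is a barrel of outer alpha rings and inner beta rings, and the beta subunits Psmb5, Psmb6 and Psmb7 carry the cleavage sites. The 19S regulatory particle caps the barrel, with a base of ATPases that unfold the substrate and a lid that removes ubiquitin. In cells exposed to interferon gamma, Psmb8, Psmb9 and Psmb10 replace Psmb5, Psmb6 and Psmb7 in newly built cores, and the PA28 activator made of Psme1 and Psme2 is induced with them, which changes the peptides offered to MHC class I molecules.

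RNA from brain tumor biopsies of 2 mouse models of Group 3 medulloblastoma, a childhood tumor of the cerebellum, was compared. GMYC tumors (n = 6) came from mice of the genotype Glt1-tTA/TRE-MYC, and GTML tumors (n = 8) from the corresponding model with a MYCN transgene. In both, a tetracycline-controlled transactivator expressed from the Glt1 (glutamate transporter) promoter switches the transgene on in the absence of doxycycline, so that the driver oncogene is expressed only in cells that use this promoter. The methods give FVB/N as the background of the transgenic crosses. The study describes a single GTML tumor as also resembling SHH medulloblastoma, another subgroup, and left it out of its own comparison of the models. The labels do not say which tumor that is, so all 8 were kept here, and fits without each of them in turn are given with the results. The ages of the mice are not given in the labels. The methods describe part of the GTML tumors as sequenced earlier and part as new, and the labels do not say which is which, so that the sequencing round and the model cannot be told apart in full. Nothing in the labels states that each biopsy came from a separate mouse. If some biopsies shared a mouse, p-values would measure only the spread between these samples. A bulk biopsy also cannot tell fewer cells of a type from less RNA per cell.

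GMYC tumors held 6218378 to 7279811 counts each and GTML tumors 4602294 to 6317404. Of the driver genes, Myc was at 134 to 166 CPM in GMYC tumors 1 to 5, at 33.4 CPM in GMYC tumor 6 and at 2.60 to 8.68 CPM in GTML tumors. Mycn was at 7.65 to 34.4 CPM in GMYC tumors and at 119 to 191 CPM in GTML tumors. The models did not overlap in either gene, but GMYC tumor 6 stood apart with the lowest Myc and the highest Mycn of its group, at about equal levels. The study describes the MYC of the transgene as human, while the reads were placed on the mouse genome. How far the values of the mouse Myc gene count transgene reads is not known, so they do not give the driver level. Levels are given as CPM after TMM normalization, a gene's count relative to the normalized total of its tumor. Small nucleolar RNAs took above 0.3% of the counts in GMYC tumors 1 to 4 and GTML tumors 1 and 2. Their share was below 0.3% in GMYC tumors 5 and 6 and GTML tumors 3 to 8. No label describes this split, but it follows the order in which the samples are listed. The tumors above 0.3% come first and those below 0.3% follow, and what that order reflects is not stated. Counts of Y-linked genes were at most 24 in GTML tumors 2, 3, 5 and 8 and at least 1165 in the other tumors. GMYC tumor 2 and GTML tumor 8 stood apart in genes induced by interferon. The summed CPM of 20 such genes was 880 in GMYC tumor 2 against 60.7 to 247 in the other GMYC tumors, and 310 in GTML tumor 8 against 79.2 to 150 in the other GTML tumors.

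Most constitutive proteasome subunits had a slightly lower level in GTML than in GMYC tumors, and a minority of them passed the test. Log2 fold changes, taken as GTML over GMYC throughout, come from edgeR's quasi-likelihood test, with p-values adjusted by the Benjamini-Hochberg method over the 21024 genes tested and a gene called at an adjusted p under 0.05. The log2 fold change was below 0 for 30 of the 31 subunits, against 47.5% of all genes tested. The median over the subunits was -0.33, and over all genes tested 0.04. The test was passed by 7 of the 31 subunits (22.6%), all higher in GMYC, where 9.71% of all genes tested were called higher in GMYC. No subunit was called higher in GTML tumors, against 11.5% of all genes. At an unadjusted p under 0.05 the count was 16 of 31, against 37.8% of all genes in either direction. None of the 31 passed at an adjusted p under 0.01 with a log2 fold change beyond 1, which 1.1% of all genes passed as higher in GMYC. These are the study's thresholds, which it applied with limma-voom and without the SHH-like tumor, and here they were applied to the edgeR fit of all 14 tumors.

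**Figure D1:**
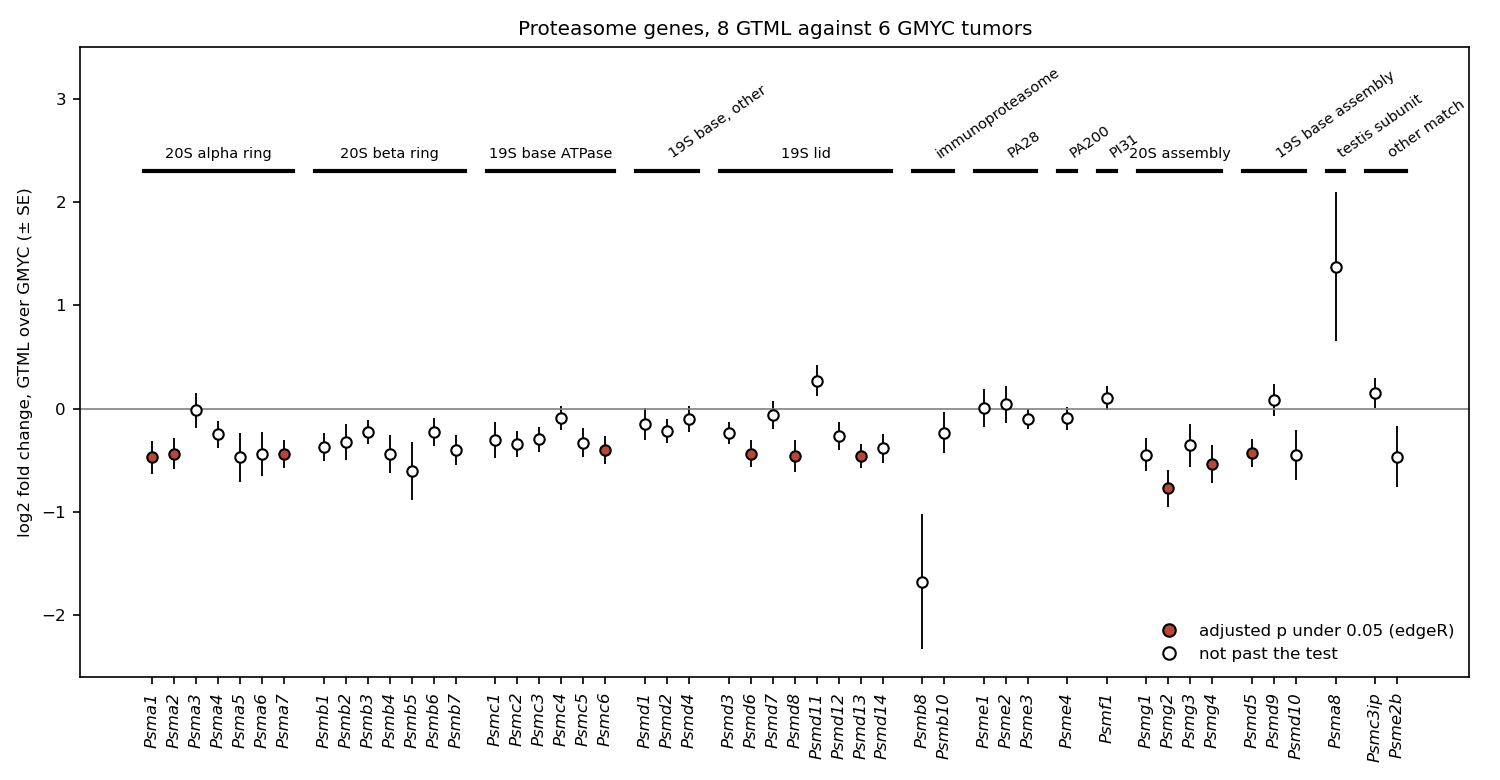
Log2 fold change of the 48 tested proteasome genes, GTML over GMYC tumors, on the vertical axis, with bars of 1 standard error and genes grouped by role. Filled points passed an adjusted p under 0.05; 30 of the 31 constitutive subunits lie below 0, with Psmd11 above it.

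The 14 subunits of the 20S core all had a log2 fold change below 0, with a median of -0.42. Of these, 3, all of the alpha ring, were called higher in GMYC, against 9.71% of all genes tested. Psma7, an alpha subunit, had the smallest p of its ring. It ranged from 111 to 130 CPM in GMYC tumors (median 124) and from 69.2 to 123 CPM in GTML tumors (median 84.6). GTML tumor 2 alone reached the GMYC range, while the other 7 GTML tumors lay below every GMYC tumor. The log2 fold change was -0.44 ± 0.14 (SE, edgeR adjusted p = 0.034). Psma1 fell by 0.47 on the log2 scale (SE 0.16, edgeR adjusted p = 0.046), and Psma2 fell by 0.43 (SE 0.15, edgeR adjusted p = 0.046). Both were below every GMYC tumor in 5 of the 8 GTML tumors. Psma3 had a log2 fold change of -0.02, the one nearest to 0 in the rings.

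No subunit of the beta ring passed the test, where 9.71% of all genes tested were called higher in GMYC and 11.5% higher in GTML. Psmb1, a structural beta subunit, had the smallest p of its ring, at 95.3 to 113 CPM in GMYC tumors (median 104) and 64.6 to 110 CPM in GTML tumors (median 74.1). Its groups overlapped through GTML tumors 2 and 4, and the log2 fold change was -0.37 ± 0.13 (SE, edgeR adjusted p = 0.060).

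None of the catalytic subunits passed the test, against the same 9.71% and 11.5% of all genes. Psmb5, the chymotrypsin-like site, had the lowest fold change of all 31 subunits and also a wide spread, with a log2 fold change of -0.60 ± 0.28 (SE, edgeR adjusted p = 0.13). It was at 18.7 to 32.1 CPM in GMYC tumors (median 22.0) and at 7.18 to 27.2 CPM in GTML tumors (median 13.4). GTML tumors 5 to 8 held 37 to 71 counts of the gene each and were the lowest. Psmb7, the trypsin-like site, was at 95.2 to 133 CPM in GMYC tumors (median 111) and at 62.5 to 120 CPM in GTML tumors (median 83.2), a log2 fold change of -0.40 ± 0.15 (SE, edgeR adjusted p = 0.064). Psmb6, the caspase-like site, was at 74.6 to 101 CPM in GMYC tumors (median 89.6) and at 61.9 to 95.4 CPM in GTML tumors (median 68.4), a log2 fold change of -0.22 ± 0.13 (SE, edgeR adjusted p = 0.23). For each of these genes GTML tumors 1, 2 and 4 lay inside the GMYC range and the other 5 GTML tumors lay below it. The microRNA gene Mir686 shares 109 exon bases with Psmb5 on the same strand, and how reads in this overlap were counted is not stated. Exons of Psmb7 overlap those of Nek6 on the opposite strand over 405 bases, and whether the counting used strand is not stated either.

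The 17 subunits of the 19S particle had a median log2 fold change of -0.30, and 4 were called higher in GMYC (9.71% of all genes tested). Psmd13, a lid subunit, had the smallest p of all 31 constitutive subunits. It ranged from 98.2 to 133 CPM in GMYC tumors (median 117) and from 66.5 to 103 CPM in GTML tumors (median 80.2), a log2 fold change of -0.46 ± 0.12 (SE, edgeR adjusted p = 0.014). GTML tumors 1 and 4 entered the GMYC range, and the other 6 lay below it. Its exons overlap those of Sirt3 on the opposite strand over 342 bases, and whether the counting used strand is not stated. Psmd6, a lid subunit, fell by 0.43 (SE 0.13, edgeR adjusted p = 0.030), and Psmd8, a lid subunit too, fell by 0.46 (SE 0.15, edgeR adjusted p = 0.044).

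Where 9.71% of all genes tested were called higher in GMYC, only Psmc6 of the 6 base ATPases passed the test. It was at 99.1 to 167 CPM in GMYC tumors (median 145) and at 83.2 to 137 CPM in GTML tumors (median 105), with GMYC tumor 4 below most of the GTML tumors, a log2 fold change of -0.40 ± 0.14 (SE, edgeR adjusted p = 0.048). The other ATPases had log2 fold changes between -0.34 and -0.09. Psmd2, a scaffold of the base, was at 183 to 281 CPM in GMYC tumors (median 233) and at 168 to 260 CPM in GTML tumors (median 189), and the groups overlapped widely (log2 fold change -0.21 ± 0.12 SE, edgeR adjusted p = 0.19). The single constitutive subunit above 0 was Psmd11, a lid subunit, at 66.5 to 76.4 CPM in GMYC tumors (median 75.2) and at 61.6 to 118 CPM in GTML tumors (median 92.2), which did not pass the test (log2 fold change 0.27 ± 0.15 SE, edgeR adjusted p = 0.19). GTML tumor 6 had its highest value and the lowest value of 20 of the 31 subunits.

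Called and uncalled subunits were found at both high and low levels. Per kilobase of the principal transcript, mean CPM in GMYC tumors ran from 134 for Psma7 to 26.0 for Psmd11 among the constitutive subunits, and Psmb5 stood near the bottom of that order at 26.2. Psma2, which was called, stood at 28.7, and Psmb6, which was not, at 111.

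The difference between the models was uneven across tumors. The summed CPM of the 31 constitutive subunits was 2910 to 3812 in GMYC tumors (median 3416) and 2196 to 3624 in GTML tumors (median 2578). GTML tumors 1, 2 and 4, at 3060, 3624 and 3445, lay within the GMYC range, while GTML tumors 3, 5, 6, 7 and 8, at 2196 to 2580, lay below every GMYC tumor. In those 5 tumors 22 to 29 of the 31 subunits were below every GMYC tumor, against 9 in GTML tumor 1, 1 in GTML tumor 2 and 4 in GTML tumor 4. GMYC tumor 6, the tumor with the lowest CPM of the mouse Myc gene in its group, had the highest sum. It also had the highest value of 14 subunits, and GTML tumor 2 had that of 8. Without GMYC tumor 6 the median log2 fold change of the subunits was -0.29. All 31 subunits had overlapping groups, where 2.48% of all genes tested were higher in every GMYC than in every GTML tumor and 2.14% the reverse.

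**Figure D2:**
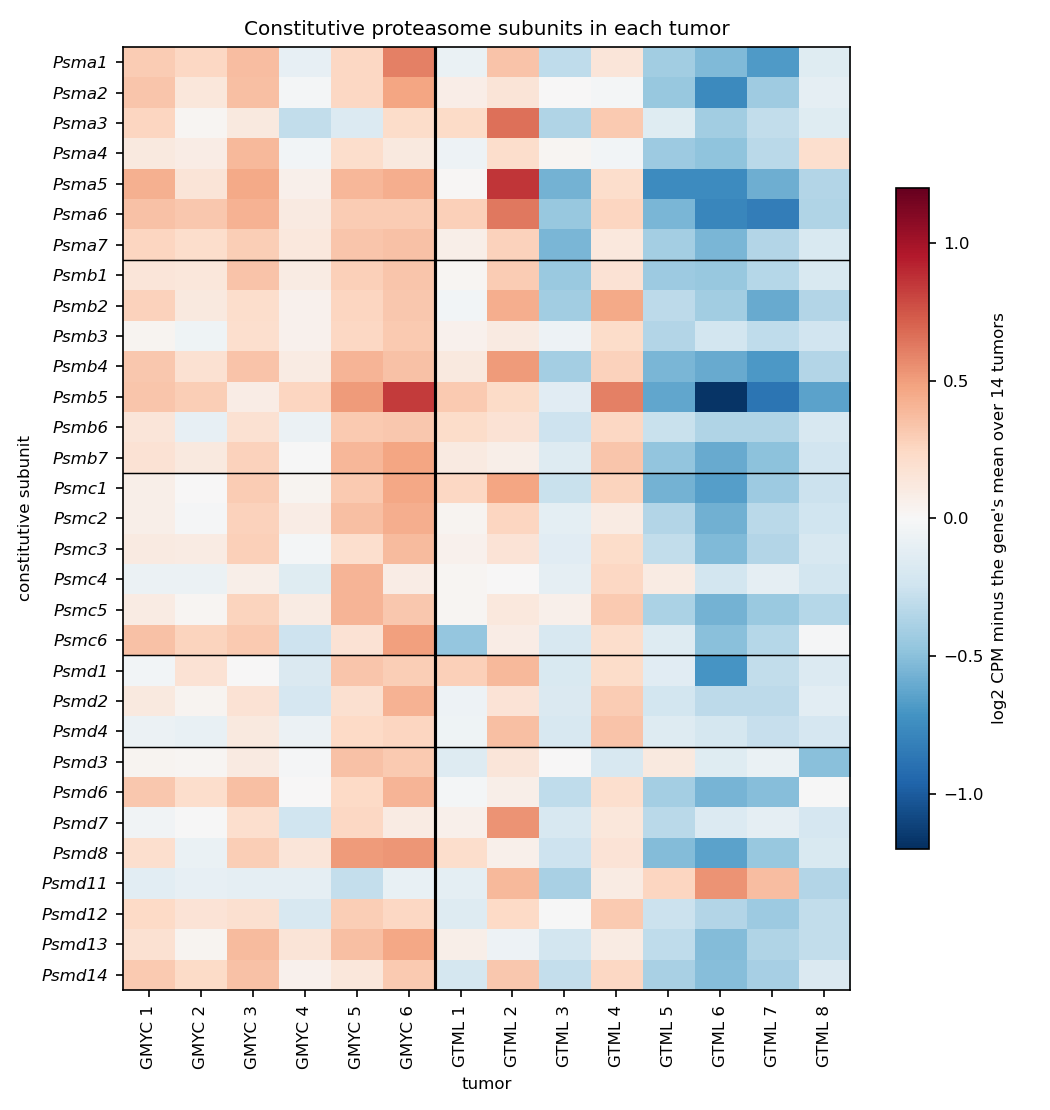
Each row is a constitutive subunit and each column a tumor, and the color is the log2 CPM minus the gene's mean over the 14 tumors. Thin lines part the alpha ring, beta ring, ATPases, other base subunits and lid. GTML tumors 3 and 5 to 8 are below the mean in most subunits, and GTML tumors 1, 2 and 4 are not.

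Which subunits passed depended on single tumors. Psmd13 was called in all 14 fits that left out 1 tumor. It was the 1 subunit called without GMYC tumor 1, 3, 5 or 6 or GTML tumor 5 or 7, in fits that called 6.93%, 5.65%, 6.43%, 7.96%, 6.58% and 7.04% of all genes higher in GMYC. The count was 2 without GTML tumor 8 (7.99% of all genes), and 3 without GTML tumor 3 (8.31%) or without GTML tumor 6 (7.86%). Without GMYC tumor 2, GMYC tumor 4 or GTML tumor 1 it was 6 (9.21%, 9.05% and 11.3% of all genes). Without GTML tumor 4 the count was 12 (9.58% of all genes), and without GTML tumor 2 it was 15 (15.1% of all genes). Of the other called subunits, Psmd6 was called in 8 of the 14 fits, Psma2 and Psma7 in 6, Psmd8 in 4, and Psma1 and Psmc6 in 3. Over these fits the median of the subunits stayed between -0.41 and -0.29. Without both tumors that stood apart in interferon genes, GMYC 2 and GTML 8, 3 subunits were called (6.83% of all genes).

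The split by small nucleolar RNA share moved with the result. Among the tumors above 0.3% (4 GMYC, 2 GTML) the median log2 fold change of the subunits was 0.03 and 14 of 31 lay below 0. None was called by edgeR, and 1 subunit had an unadjusted p under 0.05, against 2420 of 18921 genes in either direction. On this side only 2 of 18921 genes (0.0106%) were called higher in GMYC. Among the tumors below 0.3% (2 GMYC, 6 GTML) 30 of 31 lay below 0 and 3 were called higher in GMYC, Psmc2, Psmd8 and Psmd13, against 6.69% of all genes. With a term for the split in the fit over all 14 tumors, Psmd13 was the 1 subunit called, against 6.77% of all genes. In that fit 29 of 31 subunits lay below 0. By edgeR 12 of 31 had an unadjusted p under 0.05, against 6687 of 21024 genes in either direction. A term for Y-linked counts left none called by edgeR, against 3.62% of all genes called higher in GMYC. With this term 12 of 31 subunits had an unadjusted p under 0.05, against 6425 of 21024 genes in either direction. The log2 fold change lay below 0 for 30 of 31, with a median of -0.36. The part of either split in the difference was not tested.

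**Figure D3:**
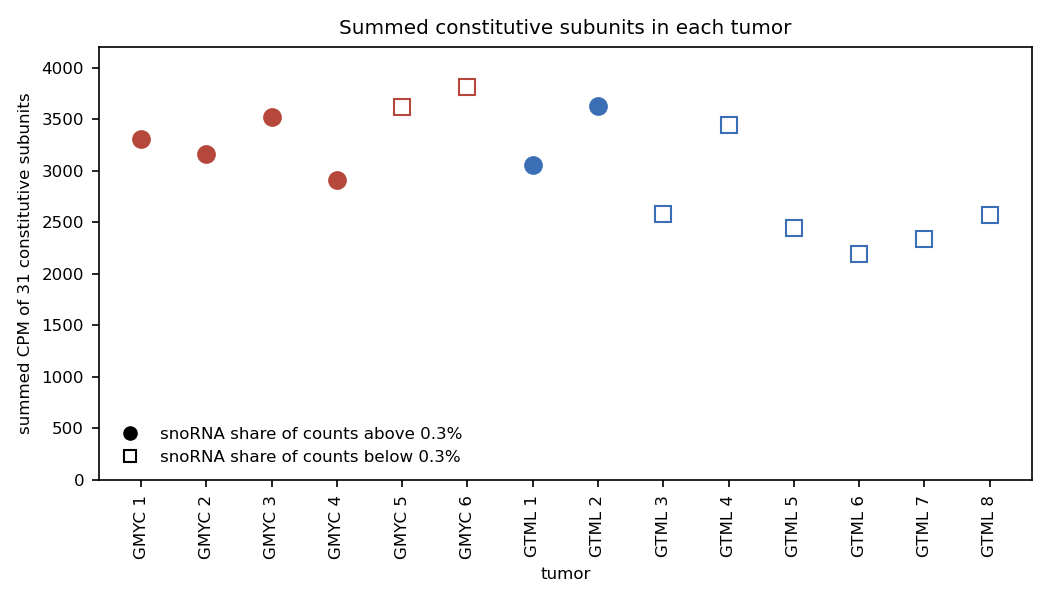
Summed CPM of the 31 constitutive subunits (vertical axis, from 0) in each of the 6 GMYC (red) and 8 GTML (blue) tumors. Filled circles are tumors with a small nucleolar RNA (snoRNA) share of counts above 0.3%, open squares those below. The 5 GTML tumors at 2196 to 2580 all lie on the lower side, on which GMYC tumors 5 and 6 and GTML tumor 4 are at 3445 to 3812.

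The smallest p of the Psm genes was that of an assembly chaperone, Psmg2. Of 7 assembly chaperones 3 were called higher in GMYC (9.71% of all genes tested) and none higher in GTML, and the median log2 fold change was -0.44. Psmg2, which pairs with Psmg1 to place the alpha subunits, was at 42.6 to 59.7 CPM in GMYC tumors (median 53.1) and at 20.6 to 42.9 CPM in GTML tumors (median 28.0). Only GTML tumor 4 reached the lowest GMYC tumor, number 6, and the log2 fold change was -0.77 ± 0.18 (SE, edgeR adjusted p = 0.0095). The gene was called in all 14 fits that left out 1 tumor. Psmg4, which pairs with Psmg3, fell by 0.54 (SE 0.19, edgeR adjusted p = 0.049) and was called in 2 of the 14 fits.

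For the 19S base, the chaperone Psmd5 was at 68.9 to 105 CPM in GMYC tumors (median 81.6) and at 48.5 to 79.9 CPM in GTML tumors (median 63.3), with GTML tumors 2 and 4 inside the GMYC range. Its log2 fold change was -0.43 ± 0.14 (SE, edgeR adjusted p = 0.037), and it was called in 7 of the 14 fits. Psmg1 did not pass (log2 fold change -0.45 ± 0.16 SE, edgeR adjusted p = 0.055). The maturation factor Pomp, which lies outside the Psm symbols and joins the half-built core, fell by 0.59 (SE 0.18, edgeR adjusted p = 0.030) and was called in 10 of the 14 fits. It was at 51.8 to 72.4 CPM in GMYC tumors (median 65.2) and at 31.8 to 68.0 CPM in GTML tumors (median 36.2), with GTML tumor 2 the only GTML tumor above the GMYC median.

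Among 28 tested receptors, ubiquitin ligases, deubiquitinases and regulators that work with the proteasome, 4 were called higher in GMYC (9.71% of all genes tested) and 1 higher in GTML (11.5% of all genes), with a median log2 fold change of -0.17. Besides Pomp, those higher in GMYC were the proteasome-bound ligase Ube3c (-0.34 ± 0.09 SE, edgeR adjusted p = 0.015), the substrate shuttle Ubqln1 (-0.46 ± 0.10 SE, edgeR adjusted p = 0.0081) and the stimulator Zfand5 (-0.43 ± 0.13 SE, edgeR adjusted p = 0.028), which were called in 14, 14 and 11 of the 14 fits. Ube3c, alone of the 28, had no overlap between the models, with 258 to 309 CPM in GMYC and 194 to 252 CPM in GTML tumors. Of all genes tested, 2.48% were higher in every GMYC than in every GTML tumor. Fbxo7, which binds the PI31 inhibitor, rose by 0.50 in GTML tumors (SE 0.16, edgeR adjusted p = 0.036) and was called in 5 of the 14 fits. Nfe2l1, the transcription factor that raises proteasome genes when activity is low, had a log2 fold change of 0.05 ± 0.09 (SE, edgeR adjusted p = 0.71).

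None of the 5 activators and inhibitors was called by edgeR, where 9.71% of all genes were called higher in GMYC and 11.5% higher in GTML. None had an unadjusted p under 0.05, against 37.8% of all genes in either direction. Psme3, the nuclear form of PA28, was at 103 to 148 CPM in GMYC tumors (median 139) and at 107 to 138 CPM in GTML tumors (median 125). Psme4, which encodes PA200, was at 265 to 363 CPM in GMYC tumors (median 285) and at 224 to 339 CPM in GTML tumors (median 272). Psmf1, the PI31 inhibitor, was at 62.8 to 70.7 CPM in GMYC tumors (median 70.1) and at 56.3 to 88.5 CPM in GTML tumors (median 74.5). The groups overlapped for all of them, and the log2 fold changes were -0.10, -0.09 and 0.10.

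Neither of the immunoproteasome subunits Psmb8 and Psmb10 was called, where 9.71% of all genes were called higher in GMYC and 11.5% higher in GTML. Both were highest in a single GMYC tumor. Psmb8 counts were low, 4 to 59 in all tumors except GMYC tumor 2, which held 272. In GMYC tumors it was at 1.84 to 38.3 CPM (median 4.39), and in GTML tumors at 0.862 to 9.02 CPM (median 2.04). Each group had a single tumor far above the rest, GMYC tumor 2 (next highest 5.93 CPM) and GTML tumor 8 (next highest 3.70 CPM). The log2 fold change was -1.68 ± 0.65 (SE, edgeR adjusted p = 0.076). It was -0.39 without GMYC tumor 2 (edgeR adjusted p = 0.57), -2.17 without GTML tumor 8 (edgeR adjusted p = 0.032) and -0.88 ± 0.38 (SE) without both (edgeR adjusted p = 0.12). Exons of Psmb8 overlap an antisense gene, Gm20496, over 498 bases. Psmb10 was at 21.5 to 48.0 CPM in GMYC tumors (median 25.6) and at 19.4 to 32.2 CPM in GTML tumors (median 24.6), with the same tumor highest. Its log2 fold change was -0.23 ± 0.20 (SE, edgeR adjusted p = 0.40), and -0.05 without GMYC tumor 2 (edgeR adjusted p = 0.85).

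The bases just before the transcription start of the inducible subunits and of constitutive catalytic subunits are shown for comparison, 150 bases each as given by RefSeq on the GRCm38.p6 assembly, read 5' to 3' on the strand of the gene and ending at the base before the start. Psmb5 lies at chr14:54617996-54618145 (minus strand), Psmb6 at chr11:70525207-70525356 (plus strand), Psmb8 at chr17:34198045-34198194 (plus strand) and Psmb10 at chr8:105938393-105938542 (minus strand). No promoter entry was found for Psmb7. Capitals mark matches to 5 motifs, searched on both strands in the 250 bases before the start: CACGTG (the E-box bound by MYC and MYCN), TGACNNNGC (the antioxidant response element core, bound by NFE2L1), GAAANNGAA (the core of the interferon-stimulated response element), TTCNNNGAA (the gamma-activated site) and CCAAT. No matches overlapped in these sequences.
Psmb5: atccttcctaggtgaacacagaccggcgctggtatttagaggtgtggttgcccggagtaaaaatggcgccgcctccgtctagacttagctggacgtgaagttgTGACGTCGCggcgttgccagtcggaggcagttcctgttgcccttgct
Psmb6: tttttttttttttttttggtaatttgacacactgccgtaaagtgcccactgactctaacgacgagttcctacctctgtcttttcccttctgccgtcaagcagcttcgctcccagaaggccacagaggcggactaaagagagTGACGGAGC
Psmb8: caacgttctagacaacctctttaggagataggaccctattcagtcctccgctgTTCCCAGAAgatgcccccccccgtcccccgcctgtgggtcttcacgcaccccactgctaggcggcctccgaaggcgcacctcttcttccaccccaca
Psmb10: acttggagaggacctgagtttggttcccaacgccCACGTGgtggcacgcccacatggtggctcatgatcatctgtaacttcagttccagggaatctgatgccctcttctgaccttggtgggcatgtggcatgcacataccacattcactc

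The TGACNNNGC match of Psmb5 begins 47 bases before the start and that of Psmb6 begins 9 bases before it. The TTCNNNGAA match of Psmb8 begins 97 bases before the start, and the CACGTG match of Psmb10 begins 116 bases before it. Promoters were listed for 41 of the 49 genes and 25 of the 31 constitutive subunits. TGACNNNGC was found for 4 of those 25 (Psmb5, Psmb6, Psmc6 and Psmd12), against 10.2% of all 32851 promoters. CACGTG was found for 1 of the 25 (Psma4), against 6.02% of all promoters, CCAAT for 10 against 33.8%, GAAANNGAA for 2 against 7.13% and TTCNNNGAA for none against 7.02%. A match is a run of letters and not evidence of binding.

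Levels of each inducible subunit were compared with those of the constitutive subunit it replaces, per kilobase of the principal transcript and with a prior count of 2. Psmb8 stood at a median of 9.9% of Psmb5 in GMYC tumors and 9.51% in GTML tumors. GMYC tumor 2, at 96.9%, and GTML tumor 8, at 46.2%, were the exceptions, and the other 12 tumors lay between 3.95% and 16.1%. The mean log2 ratio was -2.85 ± 1.46 (SD, n = 6) in GMYC and -3.25 ± 1.05 (SD, n = 8) in GTML tumors, a difference of -0.40 that turned to 0.17 without GMYC tumor 2. Psmb10 stood at a median of 22.0% of Psmb7 in GMYC and 26.9% in GTML tumors, with mean log2 ratios of -2.14 ± 0.51 (SD, n = 6) and -1.91 ± 0.23 (SD, n = 8). That difference of 0.22 was 0.39 without GMYC tumor 2 and 0.09 without GMYC tumor 6. Over all tumors both differences were smaller than the SD of the GMYC tumors, which GMYC tumor 2 widened, and that of Psmb10 over Psmb7 was about equal to the SD of the GTML tumors. No test was made of these ratios, and their level depends on the transcript length used: over all annotated exons the mean log2 ratio in GMYC tumors was -3.91 for Psmb8 over Psmb5 and -0.95 for Psmb10 over Psmb7.

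**Figure D4:**
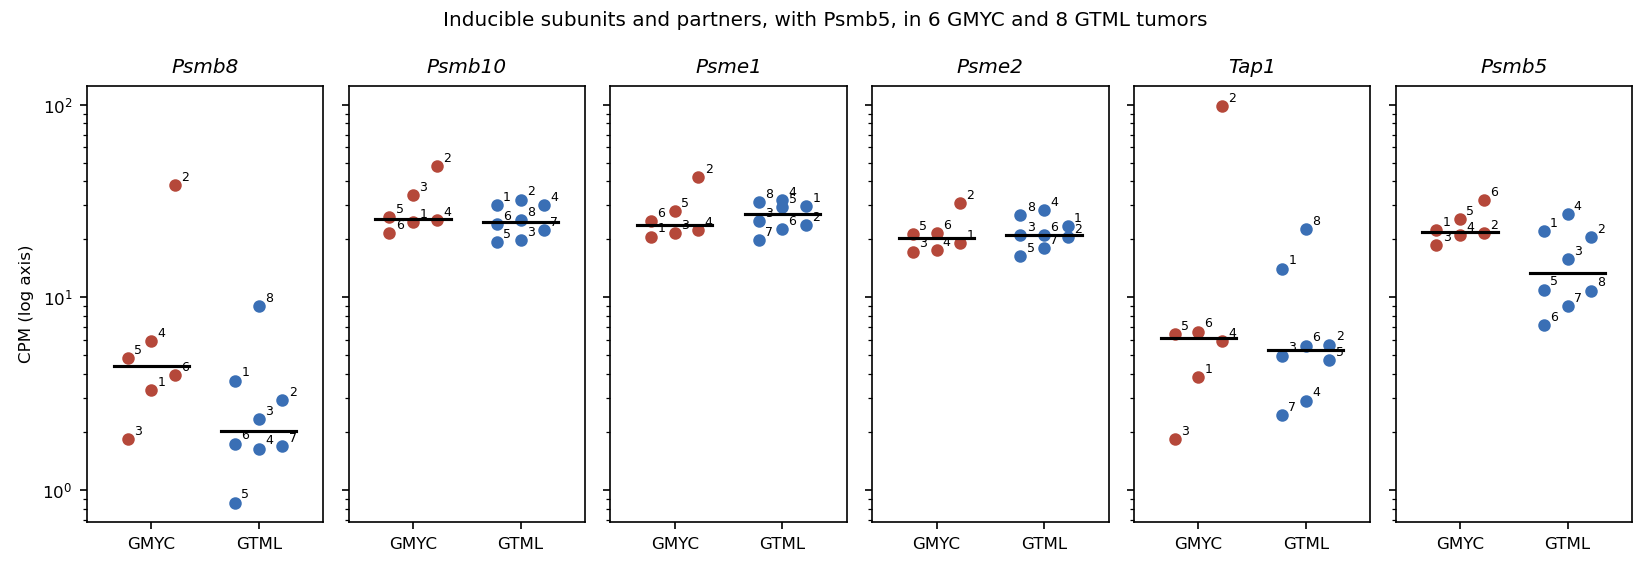
CPM on a log axis of Psmb8, Psmb10, Psme1, Psme2, the peptide transporter gene Tap1 and, for comparison, Psmb5, in 6 GMYC (red) and 8 GTML (blue) tumors, each point labeled with its tumor number and black bars at the medians. GMYC tumor 2 is highest in the first 5 genes, at 38.3 CPM for Psmb8 and 98.6 CPM for Tap1, and lies in the middle of its group for Psmb5.

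In GMYC tumor 2 the inducible proteasome genes were high together. Psme1 was at 42.1 CPM in this tumor against 20.7 to 28.2 CPM in the other GMYC tumors, and Psme2 was at 31 CPM against 17.3 to 21.6 CPM. Across GTML tumors they were at 19.8 to 32.1 CPM (Psme1, median 27.2) and 16.4 to 28.3 CPM (Psme2, median 21.1), and the GMYC medians were 23.6 and 20.3 CPM. Neither passed the test between the models (log2 fold changes 0.00 ± 0.19 and 0.04 ± 0.18 SE, edgeR adjusted p = 0.99 and 0.89). Psme2b, a near copy of Psme2 whose reads may be split with it, was at 25.6 CPM in GMYC tumor 2 and at 8.57 to 11.1 CPM in the other GMYC tumors. The constitutive subunits did not share this pattern, since GMYC tumor 2 had the highest value of none of the 31, and its summed constitutive CPM of 3166 was inside the GMYC range.

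Genes of peptide loading and of the interferon response were high in the same tumor. Of 14 genes of peptide loading and MHC class I, 9 had their highest value of all 14 tumors in GMYC tumor 2, as had 11 of 20 interferon-induced genes. Tap1, which carries proteasome products into the endoplasmic reticulum, was at 98.6 CPM there against 1.84 to 6.65 CPM in the other GMYC tumors and 2.45 to 22.6 CPM in GTML tumors. The interferon-induced GTPase gene Iigp1 was at 257 CPM against at most 4.04 CPM in the other GMYC tumors, while Ifit1, another interferon-induced gene, was at 10.8 CPM against 10.2 CPM in the next.

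Between the models, 1 of the 14 genes of peptide loading and MHC class I was called, Irf2, higher in GTML (log2 fold change 1.07 ± 0.28 SE, edgeR adjusted p = 0.017), where 11.5% of all genes were called in that direction. This gene encodes a repressor and activator of interferon-responsive promoters. Tap1 (-1.37 ± 0.79 SE, edgeR adjusted p = 0.21) and B2m, the light chain of MHC class I (-0.74 ± 0.39 SE, edgeR adjusted p = 0.17), were not called. Without GMYC tumor 2 the value of Tap1 was 0.68. None of the 20 interferon-induced genes was called by edgeR, and 3 had an unadjusted p under 0.05, against 37.8% of all genes.

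Summed immune cell markers were highest in each model in the same tumor as Psmb8, though their order between GMYC tumor 2 and GTML tumor 8 was the reverse of that of Psmb8. All 18 markers of microglia and macrophages had counts in every tumor. Their summed CPM was 407 to 667 in GMYC tumors, highest in GMYC tumor 2, and 191 to 809 in GTML tumors, highest in GTML tumor 8, and 2 of the 18, among them Cd68, were called higher in GMYC, close to the 9.71% of all genes. The summed CPM of 13 lymphocyte markers, of which 3 had counts in every tumor, was 19 to 48.4 in GMYC tumors, highest in GMYC tumor 2, and 32.7 to 79.9 in GTML tumors, highest in GTML tumor 8. The part of immune cells in the levels of Psmb8 was not tested.

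The remaining genes of the symbol rule are no general subunits. Psma8, the alpha subunit of the testis, was at 0.141 to 1.61 CPM in GMYC tumors (median 0.432) and at 0.163 to 5.85 CPM in GTML tumors (median 0.852), with GTML tumor 7 far above the others, and did not pass the test (log2 fold change 1.38 ± 0.72 SE, edgeR adjusted p = 0.17). Psmc3ip, a factor of meiotic recombination and not a proteasome subunit, had a log2 fold change of 0.15.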

How the data were processed

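RNA was measured in 6 GMYC and 8 GTML tumor biopsies. Per the study's methods, STAR and then Bowtie placed the Ion Proton reads on mm9, and featureCounts assigned them to GENCODE genes. The submitters' processing notes list STAR 2.4.0, Bowtie2 2.2 and Subread 1.5.2. The authors deposited whole-number read counts for 37310 genes, and did not normalize them. The handling of duplicates and strand is not given in the sources used here. A second table holds 18 sample columns that could not be tied to a label, and treated cells and Arf knockout samples were not analysed here.

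Symbols, gene types and lengths were taken from GENCODE vM21 (GRCm38) by Ensembl identifier, which matched 32620 genes (87.4%). Length is that of the principal transcript unless stated. The test was edgeR 4.0.16 (R 4.3.3): TMM factors, a CPM over 1 required in 3 or more tumors, quasi-likelihood test, no covariate, Benjamini-Hochberg adjustment over 21024 genes, called under 0.05. Medians and counts of lists are descriptions with no test of the list. Total counts were 4602294 to 7279811, and precision follows a gene's count. Pairs of tumors within a model differed beyond sampling noise (chi-square per degree of freedom at least 5.37). On simulated counts for 21024 genes, for this comparison, edgeR called 34 of 100 genes changed 2-fold, 67 of 100 changed 4-fold and 0 unchanged genes. Far fewer genes were changed in the simulation than were called in the data, and no change smaller than 2-fold was simulated. These rates therefore do not give the power for the differences reported here.

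The genes and lists were chosen with earlier results of these data known. Every gene of the symbol rule could be named, with values by tumor for the inducible subunits, their counterparts, Psme1, Psme2 and the gene of smallest p in each role. Of the partner, MHC class I and interferon lists, called genes and Nfe2l1, Pomp, Tap1 and B2m could be named, and a gene that the rule also named is not reported here. Psmd11, Psmg1, Psmg4, Iigp1, Ifit1 and Cd68 were singled out after their values were seen. Marker lists gave these calls, against 9.71% of all genes called higher in GMYC and 11.5% in GTML: astrocyte (0 of 7), endothelial (2 of 9, higher in GTML), oligodendrocyte (1 of 6, higher in GTML), lymphocyte (1 of 3 tested, higher in GTML), erythroid (4 of 5, higher in GMYC), cerebellar neuron (2 of 8, higher in GMYC) and tumor markers (1 of 4, higher in GMYC).

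Alternatives were DESeq2 1.42.0, limma-voom (limma 3.58.1), library size without TMM, RLE size factors, no filter and a filter at 6 tumors, the replicate number as a block, protein-coding genes only, counts thinned to the lowest total, terms for and fits within the small nucleolar RNA split, a term for Y-linked counts, the study's thresholds, a prior count of 0.5 for ratios, and leaving out each tumor. The fit without GMYC 2 and GTML 8 was added after seeing the data. DESeq2 gave no adjusted p for 74 genes. Promoter sequences are from RefSeq. Figures were drawn with matplotlib in Python. Coordinates of counted genes are left out, mm9 not being the build of the annotation used.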

Additional observations from a re-analysis of the deposited data

Results flagged for a closer look

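The groups of values examined numbered 104 (the CPM of 48 proteasome genes and 4 list sums in each model). Of these, 16 (15.4%) held a tumor whose gap to the next exceeded Dixon's critical value. Chance gives about 1 in 20 groups only for independent, normally distributed values. These groups are CPM values of related genes in the same tumors, so the share was not compared with chance. GMYC tumor 2 was high in Psmb8 (38.3 CPM, next 5.93), Psme1 (42.1 CPM), Psme2 (31 CPM), Psme2b (25.6 CPM), the summed interferon-induced genes (880 CPM, next 247) and the summed genes of peptide loading and MHC class I (1941 CPM, next 1079). GTML tumor 8 was high in Psmb8 (9.02 CPM, next 3.70) and in the summed interferon-induced genes (310 CPM, next 150).

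GTML tumor 2 was high in Psma5 (82.6 CPM, next 52.2), Psmd7 (138 CPM, next 104) and Psmg3 (50.1 CPM, next 29.1). GMYC tumor 5 was high in Psmc4 (95.3 CPM) and Psma8 (1.61 CPM) and low in Psmd11 (66.5 CPM). GMYC tumor 4 was low in Psmd12 (82.4 CPM, next 106). GTML tumor 7 was high in Psma8 (5.85 CPM, next 1.53). The cause of these values was not tested.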

How the results depend on the processing

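No constitutive subunit was called higher in GTML under any of the alternatives. The number called higher in GMYC was 7, where 9.71% of all genes tested were called in that direction. DESeq2 (12.1% of all genes) and limma-voom (11.4%) each gave 9, of which 7 and 6 were among those 7 genes. It was 3 with no filter on low counts (4.96% of all genes) and 11 with protein-coding genes only (8.81% of those tested). The small nucleolar RNA term gave 1 (6.77%), its higher side 0 (0.0106%) and its lower side 3 (6.69%). It was 0 with the Y-linked term (3.62%), 0 at the study's thresholds (1.1%) and 3 without GMYC 2 and GTML 8 (6.83%). Leaving out 1 tumor gave 1 (without GMYC 1, 3, 5 or 6, or GTML 5 or 7) to 15 (without GTML 2). Calls over all genes, 2418 higher in GTML and 2041 higher in GMYC, were 1360 higher in GMYC with protein-coding genes only, 1428 higher in GTML with the small nucleolar RNA term, 0 and 2 within its higher side, 1328 and 1334 within its lower side, 1290 and 761 with the Y-linked term and 444 and 232 at the study's thresholds. Leaving out 1 tumor gave 1433 to 3264 higher in GTML and 1184 to 3166 higher in GMYC. The median log2 fold change of all genes, 0.04, was 0.0566 with RLE size factors, 0.176 with no filter, 0.0079 within the higher side and 0.0042 with the Y-linked term. The cause of these changes was not tested.

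Within the higher side of the small nucleolar RNA split the median of the constitutive subunits was 0.0297, with 14 of 31 below 0, and the genes whose sign turned included Psmd8 (0.0015), Psmb6 (0.16), Psmb5 (0.0403), Psmd2 (0.0297), Zfand5 (0.0074), Psmf1 (-0.19) and Nfe2l1 (-0.0592, and -0.00647 with the term). Within the lower side it turned for Tap1 (0.14) and Psme1 (-8.58e-05), and the difference in the Psmb10 over Psmb7 log2 ratio was 0.69, against 0.22 over all tumors. Psme1, near 0, was -0.011 with no filter, -0.0232 with protein-coding genes only, -0.00388 on thinned counts and -0.0282 with the Y-linked term. Without GMYC 2 and GTML 8 Tap1 was 0.23. Leaving out 1 tumor gave -0.0528 to 0.18 for Psme1, -0.0187 to 0.17 for Psme2, -1.82 to 0.68 for Tap1 and -2.17 to -0.39 for Psmb8.

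With the replicate number as a block (numbers 1 to 6 of both models, 12 tumors), 20617 genes were tested. Of these, 161 (0.781%) were called higher in GTML and 90 (0.437%) in GMYC, and no constitutive subunit was called by edgeR. At an unadjusted p under 0.05 there were 4 of 31 subunits, against 5375 of all genes tested in either direction. In this fit 29 of 31 lay below 0 with a median of -0.28, and the median of all genes was 0.0074. The deviations of same-numbered tumors correlated between -0.21 and 0.21, so the tumors share only a number. The results planned for Psmb9 could not be run. Low counts limit Psmb8, at under 60 counts in all tumors except GMYC tumor 2.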
